A study of Mus musculus with 71 samples.

Results

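The comparison was between 4 libraries of male mouse embryonic stem cells (mESC) treated for 18 h with STM2457, an inhibitor of the m6A methyltransferase Mettl3, and 4 libraries of the same cells treated for 18 h with its solvent DMSO. They are 8 of the 71 libraries of a SLAM-seq time course, namely those of its last time point, T7, and were taken by the T7 and treatment labels of the samples. All 8 came from cells that had been grown with 100 µM of the uridine analogue s4U for 24 h, had received 20 µM STM2457 or DMSO 6 h before the label was replaced with excess uridine, and were collected 12 h into this uridine chase with the compound still present. The hours were taken from the methods of the study, since the labels give T7 without a time. All cells were male mESC kept in medium with LIF and the inhibitors CHIR99021 (of GSK3) and PD 0325901 (of MEK), which hold them in naive pluripotency, so every comparison was made under active LIF signalling, with GSK3 and MEK inhibited. The methods call the replicates independent biological replicates of the cell line.

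m6A is a methyl mark that the complex of Mettl3, Mettl14 and Wtap places on adenosines of mRNA, mostly within short DRACH motifs such as GGACT near stop codons and in 3′ UTRs. Readers of the YTH family bind the mark, and the cytoplasmic ones recruit deadenylases, so that methylated mRNA is degraded sooner. In mESC the mark is best known for limiting the lifetime of mRNAs of pluripotency and developmental regulators. SLAM-seq reads each RNA in both of its aspects, the number of reads (how much RNA was present after 18 h of treatment) and the T-to-C conversions (how much of it was made before the chase and had survived the 12 h of chase).

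The letters around which the mark is placed were looked up in 3′ UTRs of genes that changed. The following windows are the first GGACT after the stop codon, in the longest GENCODE M21 transcript on GRCm38, of 4 genes that rose and 2 that fell in read count, with the motif in capitals.
Rhob, chr12:8498423-8498447, minus strand: agcatgaactGGACTtggccatctt
Sp5, chr2:70477530-70477554, plus strand: ggcccgattcGGACTttgtacaggt
Msmo1, chr8:64718916-64718940, minus strand: ctgcttctggGGACTtggctgccaa
Ythdf2, chr4:132186832-132186856, minus strand: aagaaaattaGGACTttttttctta
Ddit3, chr10:127296185-127296209, plus strand: gctgaggaggGGACTgagggtagac
Tap1, chr17:34196775-34196799, plus strand: caaggcctctGGACTgcacactgcg
Not every gene with a large change holds it there, since the 3′ UTRs of Klf2, Mycn and Eras have 0 matches. The motif was chosen with the values known. It was present in the 3′ UTR of 62.8% of the genes that rose, 57.6% of those that fell and 63.6% of the genes that passed no threshold, against 63.3% of the 10690 tested genes with a protein-coding transcript. In coding sequence it was present in 71.4%, 79.6% and 76.9% of these 3 classes, whose median coding lengths were 1036.5, 1320 and 1404 bases. Per kb of coding sequence it occurred 1.28, 1.26 and 1.17 times, against 1.18 over all tested genes with a transcript. A match is only a run of letters and no measurement of methylation.

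The 8 libraries held 4539726 to 6421477 reads, with more in the STM2457 libraries (5938470 ± 345115, SD, n = 4) than in the DMSO libraries (5192760 ± 438218, SD, n = 4, two-sided exact permutation p = 0.0286, the smallest that 4 against 4 allows). Of these, 22.5% to 24.9% mapped to several places. Among the STM2457 libraries, replicate 1 stood apart from replicates 2 to 4, with the lowest share of multimapping reads of all 8 libraries and a TMM factor of 1.04 against 0.957 to 0.983. Replicates of a group differed by more than sampling noise in every pair. Of the mESC markers, Pou5f1 was at 692, 672, 643 and 745 reads per 1000000 reads of the library (CPM, after TMM scaling) in the DMSO replicates and at 817, 768, 794 and 801 in the STM2457 replicates, although 95.6% of its reads mapped to several places. Nanog and Esrrb, with values below, also had reads in all 8 libraries, whereas Klf4 was low in DMSO. Of 10 markers listed for each of 5 other cell types, the deposited counts held 10 endoderm, 10 mesoderm, 7 neuroectoderm, 10 trophoblast and 8 fibroblast genes. Of these, 2 endoderm, 6 mesoderm, 4 neuroectoderm, 7 trophoblast and 4 fibroblast genes had enough reads to be tested. The listed markers without deposited counts could not be examined. Eomes and Hand1 stand in both the mesoderm and the trophoblast list. Among these genes the trophoblast factor Cdx2 alone passed the threshold (11.29 ± 2.24 to 24.5 ± 3.85 CPM, log2 fold change 1.12). The summed markers are given per 1000000 reads of the library without TMM scaling. They lay at 38.2 to 46.3 in DMSO and 27 to 38.8 in STM2457 for endoderm, at 21.6 to 36.1 and 36.9 to 52.2 for mesoderm, at 44.7 to 54.8 and 37.1 to 45 for neuroectoderm, at 233 to 247 and 222 to 250.4 for trophoblast and at 359 to 404 and 346 to 397 for fibroblasts. The sums for mesoderm were higher in all 4 STM2457 libraries than in any DMSO library, and the part of such cells in the results was not tested. The fibroblast collagen gene Col3a1 had 0 reads in all 8 libraries, and the endoderm factors Gata6 and Sox17 and the trophoblast factors Elf5 and Gata3 had at most 10 reads in any library. In such bulk libraries, fewer cells of a type and less RNA per cell cannot be told apart.

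After 18 h, 634 of 11007 tested genes had more reads in STM2457 (5.76%) and 387 had fewer (3.52%), 9.28% together, at an adjusted p under 0.01 in edgeR's quasi-likelihood test. Hereafter "rose" and "fell" are used of genes past this threshold, and levels are in CPM. The groups did not overlap in 2187 genes (19.9%). Most changes were modest, with a median of 1.63-fold among the genes that rose and 1.66-fold among those that fell. Among them 141 rose at least 2-fold (1.28%) and 107 fell at least 2-fold (0.972%), and the median log2 fold change of all tested genes was -0.01. The balance of rises and falls depended on the scaling: with library totals in place of TMM factors 535 rose and 513 fell, so that 51.1% of the calls were rises against 62.1% with TMM. Without STM2457 replicate 3 the number that fell was 247 and the number that rose was 462.

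**Figure D1:**
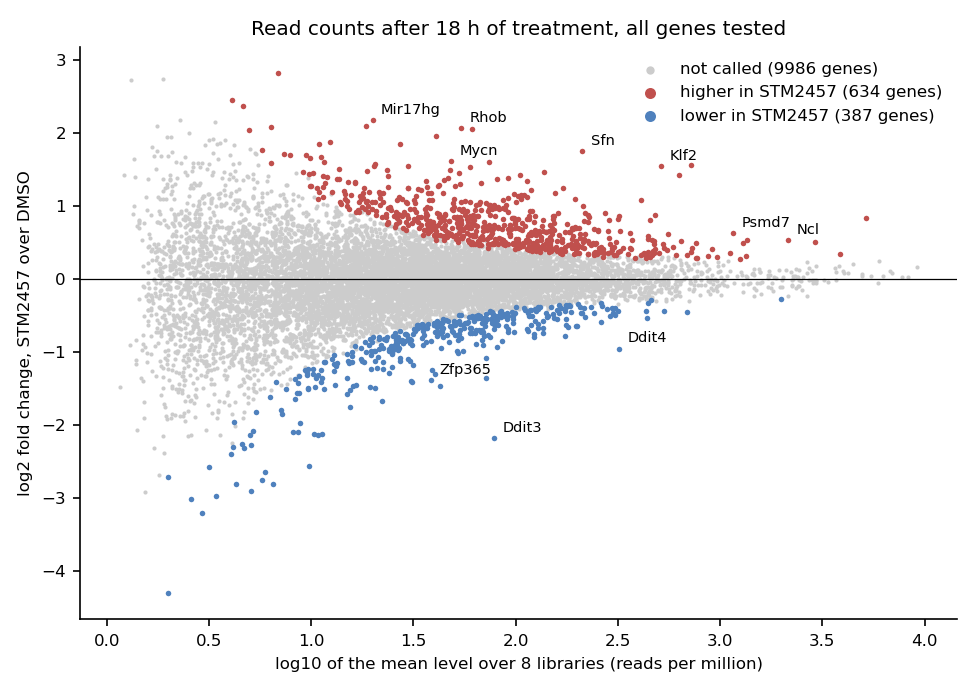
Log2 fold change of reads (STM2457 against DMSO after 18 h, vertical axis) against the mean level over the 8 libraries (log10 of CPM, horizontal axis) for the 11007 tested genes, coloured by whether they rose (634), fell (387) or passed no threshold. Mir17hg and Rhob lie at the upper edge and Ddit3 at the lower edge, and most called genes lie within 2-fold of no change.

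The largest rises are given for genes with at least 20 CPM in the higher group, no overlap between groups and under 20% multimapping reads. Mir17hg (chr14:115042879-115046727), the host gene of the miR-17-92 cluster, was at 2.81, 11.99, 6.56 and 7.23 CPM in the DMSO replicates and at 36.6, 24.4, 32.3 and 38.03 in the STM2457 replicates (log2 fold change 2.18 ± 0.27, SE, edgeR adjusted p = 2.3e-07). Eras (chrX:7924276-7928607), which encodes a constitutively active Ras protein of mESC, was at 2.597, 10.3, 4.92 and 9.76 and at 36.98, 27.9, 25.3 and 30.1 (log2 fold change 2.10 ± 0.28, SE, edgeR adjusted p = 8.7e-07). For both genes the lowest STM2457 library was more than 2-fold above the highest DMSO library. Rhob (chr12:8497661-8500009), a small GTPase, went from 23.6, 16.1, 23.1 and 20.6 to 71.6, 87, 96.7 and 94.5 (log2 fold change 2.07 ± 0.15, SE, edgeR adjusted p = 2e-12), and Sfn, the 14-3-3 sigma protein, from 89.4, 117, 84.7 and 95.6 to 246, 326, 375 and 362 (log2 fold change 1.76 ± 0.11, SE, edgeR adjusted p = 7.8e-14). Mycn (chr12:12936093-12941914), a MYC family transcription factor, stood at 21.4, 23.2, 25.5 and 24.4 in DMSO and 83.3, 72.6, 68.5 and 66.3 in STM2457 (log2 fold change 1.62 ± 0.15, SE, edgeR adjusted p = 3.1e-10). In none of the 5 genes did the groups overlap. The other genes among the 12 largest rises past the filters were Sp5 and Klf2, described below, the long noncoding RNA Snhg20 (1.61 on the log2 scale), the FGF carrier protein gene Fgfbp1 (1.59), the chromatin remodelling factor Rsf1 (1.56), the lysosome-related organelle gene Bloc1s4 (1.55) and the nuclear export factor Nxt1 (1.54).

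Under the same filters, the largest fall was in Ddit3 (chr10:127290774-127296288), which encodes CHOP, a transcription factor of the integrated stress response. It was at 118, 108, 141 and 148 CPM in DMSO and at 36.98, 31.6, 25.6 and 19.6 in STM2457, a 4.52-fold lower level (log2 fold change -2.18 ± 0.15, SE, edgeR adjusted p = 3.2e-13). Among the other falls past these filters were the kinase-like gene Plk5 (23.8 ± 3.69 to 7.06 ± 1.299 CPM, SD, n = 4, log2 fold change -1.75), the secreted factor Tafa4 (33.9 ± 9.82 to 10.6 ± 2.69, -1.67) and the homeobox gene Nkx2-9 (22.3 ± 3.73 to 7.46 ± 1.57, -1.58). Tap1, which carries peptides to MHC class I molecules, was at 47.8, 40.8, 42.8 and 49.5 and 16.9, 15.99, 21.6 and 13.8 (log2 fold change -1.40 ± 0.18, SE, edgeR adjusted p = 4.9e-07). The remaining 7 of the 12 were the zinc finger genes Zfp952 (-1.51) and Zfp688 (-1.49), Parp16, an ADP-ribosyltransferase of the endoplasmic reticulum (-1.47), Got1l1 (-1.47), Rasl11b (-1.47), Nudt18 (-1.45) and Cbarp, a regulator of calcium channels (-1.39).

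**Figure D2:**
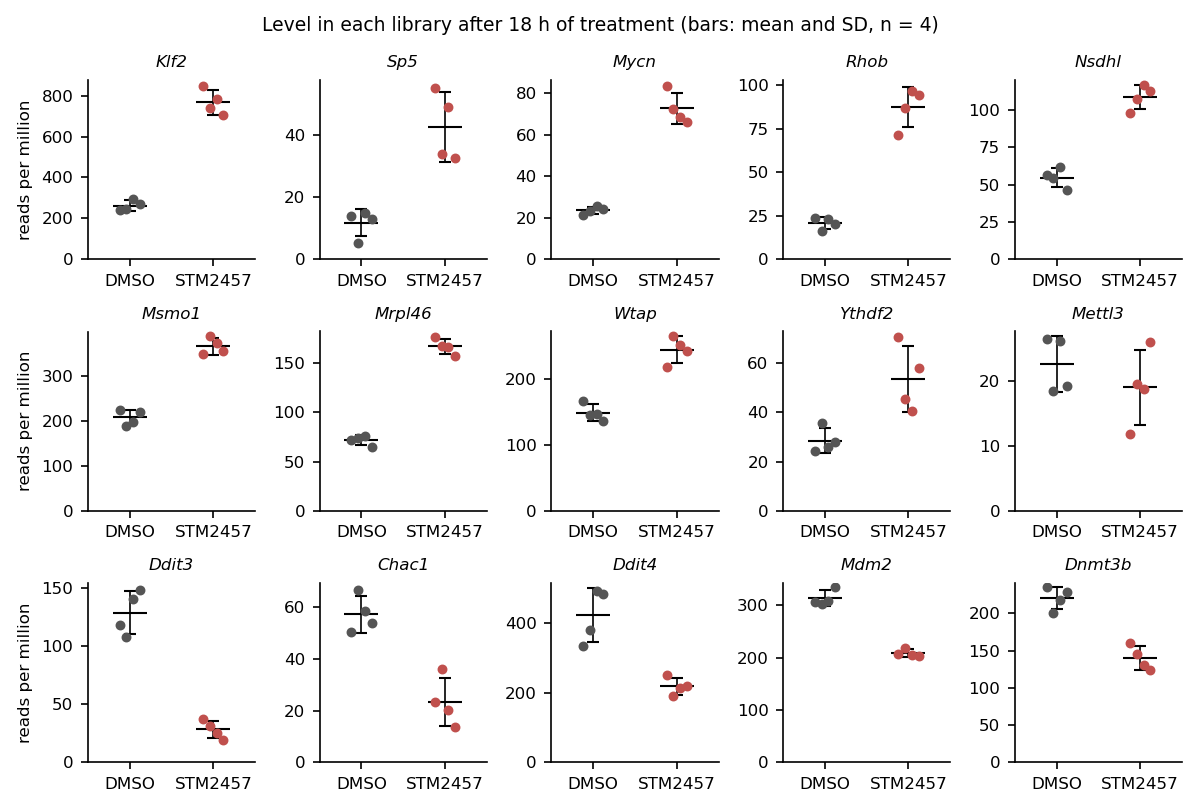
Level in CPM in each library (points, DMSO and STM2457, n = 4 each, with mean and SD) for 15 genes named in the text, each on its own axis. The groups are apart in all panels but that of Mettl3, for example at 239 to 294 against 706 to 846 for Klf2 and at 108 to 148 against 19.6 to 37.0 for Ddit3.

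Of the m6A machinery itself, 3 of 8 tested writer genes rose (37.5%, against 5.76% of all genes) and 0 fell, with a median log2 fold change of 0.37. Mettl3, whose enzymatic activity the compound inhibits, was at 26.4, 18.5, 26.1 and 19.2 CPM in DMSO and 11.9, 19.4, 18.7 and 25.9 in STM2457 (log2 fold change -0.25 ± 0.23, SE, edgeR adjusted p = 0.509). The groups overlapped, and since STM2457 acts on the protein, its mRNA level does not check the treatment. Its partner Mettl14 had a log2 fold change of -0.43 (adjusted p = 0.0501), which did not pass. Wtap, the adaptor that brings the enzyme to nuclear speckles, rose from 166, 145, 147 and 135 to 218, 265, 251 and 242 (log2 fold change 0.72 ± 0.09, SE, edgeR adjusted p = 6.4e-07). Since 64.4% of its reads mapped to several places, its value in uniquely mapping reads is given too, a log2 fold change of 1.21. Rbm15, which binds RNA for the complex, rose by 0.64 ± 0.13 (SE) on the log2 scale, and Mettl16, a separate methyltransferase that acts on U6 snRNA and on Mat2a mRNA, by 0.43 ± 0.09. The log2 fold changes of Virma (0.37), Zc3h13 (0.31) and Cbll1 (0.37) did not pass. Neither demethylase passed the threshold: Fto had a log2 fold change of 0.00 and Alkbh5 of -0.07, 0 of 2 passed an unadjusted p under 0.05 in edgeR, and DESeq2 called 0.

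Among the 5 YTH readers, Ythdf2, the cytoplasmic reader that recruits the CCR4-NOT deadenylase, rose alone, where 5.76% of all tested genes rose and 3.52% fell. It was at 24.5, 35.8, 25.9 and 27.8 CPM in DMSO and at 70.5, 45.6, 40.7 and 58.1 in STM2457 (log2 fold change 0.91 ± 0.17, SE, edgeR adjusted p = 0.00022), without overlap. The log2 fold changes of Ythdf1 (0.22), Ythdf3 (0.28) and Ythdc1 (0.30) were above 0 and that of Ythdc2 (-0.30) below 0, and none of them passed. Of the genes downstream in decay, 1 of 17 in the CCR4-NOT list rose (Cnot8, 0.50, not called without STM2457 replicate 4) and none fell. That list also holds Tob, Btg and Pan genes, and its share of rises (5.88%) was near that of all genes. Of 10 decapping and 5′-3′ decay genes 0 passed, with 0 called by DESeq2 and 1, lower, at an unadjusted p under 0.05 in edgeR.

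Of the lists with at least 2 tested genes, that of naive pluripotency had the largest share of rises. Of 14 tested, 9 rose (64.3%, against 5.76% of all genes) and 0 fell. The median log2 fold change was 0.82 (8 or 9 rose when any library was left out). Klf2 (chr8:72319033-72321656), a KLF transcription factor of the naive state, had 239, 245, 294 and 271 CPM in the DMSO replicates and 846, 737, 783 and 706 in the STM2457 replicates, 2.93-fold more (log2 fold change 1.55 ± 0.09, SE, edgeR adjusted p = 1.6e-15). Nanog was at 155, 176, 138 and 132 and 249, 228, 258 and 240.3 (log2 fold change 0.70 ± 0.10, SE, edgeR adjusted p = 1.7e-06). Esrrb, a nuclear receptor that activates the naive network, was at 91.8, 93.5, 69.6 and 73.6 and 140.02, 164, 147 and 129.7 (log2 fold change 0.82 ± 0.11, SE, edgeR adjusted p = 1.6e-06). In each of these genes all STM2457 libraries were above all DMSO libraries. Tfcp2l1 rose from 35.1 ± 5.26 to 73.1 ± 4.33 (SD, n = 4, log2 fold change 1.06), Nr0b1, a partner of Nanog and Oct4, from 43.5 ± 3.44 to 89.05 ± 9.77 (1.04), Tbx3 from 17.9 ± 5.13 to 33.8 ± 6.21 (0.92), Fbxo15 from 52.7 ± 10.1 to 86.3 ± 7.53 (0.71), Gbx2 from 6.24 ± 3.4 to 16.6 ± 1.46 (1.41) and Zfp42 (Rex1) from 24.4 ± 2.61 to 59.5 ± 8.25 (1.29, 74.4% multimapping, 1.68 in uniquely mapping reads). Other members of the network passed no threshold: Klf5 had a log2 fold change of -0.30 (adjusted p = 0.0334), Dppa3 of 0.00 and Klf4 of -0.14 at 1.09 to 5.20 CPM in DMSO.

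Of 10 factors shared by naive and later pluripotent states, 3 rose (30%, against 5.76% of all genes) and 0 fell, with a median of 0.10. The rises included L1td1 (0.60 ± 0.09) and Sall4 (0.45 ± 0.10), the last not called without DMSO replicate 2, DMSO replicate 4 or STM2457 replicate 2. Pou5f1 itself had a log2 fold change of 0.21 ± 0.08 (adjusted p = 0.0551) and Tdgf1 of -0.04 ± 0.11. Among 11 genes of formative and primed pluripotency, Dnmt3b and Dnmt3l fell and Sox3 rose, and the median was -0.03. Dnmt3b, a de novo DNA methyltransferase that is turned on as cells leave the naive state, was at 235, 201, 218 and 228 in DMSO and 159.97, 146, 131 and 125 in STM2457 (log2 fold change -0.65 ± 0.10, SE, edgeR adjusted p = 5.8e-06). Its cofactor Dnmt3l went from 137 ± 21.1 to 96.1 ± 9.398 (log2 fold change -0.51, not called without DMSO replicate 1 or without STM2457 replicate 3) and Sox3 from 39.4 ± 6.36 to 69.2 ± 4.12 (0.82). Eif1a, the only tested gene of the list of genes active at the two-cell stage, rose from 63.9 ± 11.6 to 163 ± 1.24 (1.35).

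Several genes of the LIF-STAT3, Wnt and BMP and Nodal lists rose as well, where 5.76% of all tested genes rose and 3.52% fell. The medium as described holds LIF and CHIR99021 and names no BMP or Nodal ligand. In the LIF-STAT3 list, 4 of 12 rose and 0 fell (median 0.43), among them Tfcp2l1, Sp5 and the kinase gene Pim1 (22.9 ± 6.34 to 51.8 ± 5.19 CPM, 1.18). Stat3 itself, at 17.1, 17.5, 31.2 and 16.1 in DMSO and 8.77, 12.4, 11.04 and 11.2 in STM2457, had a log2 fold change of -0.92 ± 0.25 with an adjusted p of 0.0103 and was called lower by DESeq2 and with library totals. DMSO replicate 3 was its highest library. In the Wnt list, 3 of 9 rose and 0 fell (median 0.58). They were Sp5, a transcription factor gene in both the LIF-STAT3 and the Wnt list, Axin2 (19.6 ± 5.32 to 37.3 ± 7.58, 0.92), a feedback inhibitor of the Wnt pathway, and Cdx1 (58.9 ± 4.61 to 95.3 ± 15.6, 0.70). Sp5 (chr2:70474923-70477729) was at 13.9, 5.35, 14.9 and 13.2 CPM in DMSO and 55.4, 33.9, 49.2 and 32.6 in STM2457 (log2 fold change 1.85 ± 0.24, SE, edgeR adjusted p = 4e-07), with DMSO replicate 2 the lowest library and the groups apart. In the BMP and Nodal list, 3 of 11 rose and 1 fell (median 0.46). The rises were Id1, which holds off neural differentiation, from 4.696 ± 2.37 to 17.05 ± 1.98 (1.85), the Nodal inhibitor Lefty2 from 114 ± 8.86 to 195 ± 17.01 (0.77), and Skil, which restrains SMAD proteins, from 26.2 ± 5.34 to 46.3 ± 4.31 (0.82). The number that fell was 0 without DMSO replicate 2 or 3 or STM2457 replicate 1 or 2. In the FGF-ERK list, whose pathway PD 0325901 blocks in all 8 libraries, 0 of 12 passed (median -0.06), with 0 called by DESeq2 and 1 higher and 1 lower at an unadjusted p under 0.05 in edgeR. Of 11 genes of the MYC network Mycn alone rose.

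Of 24 cholesterol synthesis genes 12 rose and 0 fell (against 5.76% and 3.52% of all genes), and 12 passed no threshold. The median log2 fold change was 0.52, against -0.01 over all genes, and 9 to 15 rose with a library left out. Msmo1, a sterol demethylation enzyme, was at 224, 190.1, 198 and 220.3 CPM in the DMSO replicates and at 349, 389.6, 375 and 355 in the STM2457 replicates (log2 fold change 0.82 ± 0.09, SE, edgeR adjusted p = 1.1e-08). The groups were apart. Rises extended along the pathway, from its first steps, with Hmgcs1 (359.8 ± 34.2 to 528 ± 29.998, 0.55), over Pmvk (0.55) and Mvd (0.37), the squalene enzymes Fdft1 (90.7 ± 10.6 to 156 ± 8.801, 0.78) and Sqle (92.8 ± 7.49 to 146 ± 7.05, 0.65), to the late sterol enzymes Nsdhl (54.7 ± 6.19 to 109 ± 7.92, 0.99), Ebp (0.48), Sc5d (0.52) and Dhcr7 (54.3 ± 8.101 to 80.1 ± 3.12, 0.56). Srebf2, which encodes the transcription factor that activates them and is itself controlled at the protein level, had a log2 fold change of 0.00. A single form of its binding motif, ATCAC, any base and CCAC, was searched on both strands. It was in 0 of the 17 promoters of the list found in RefSeq (GRCm38.p6, 250 bases before to 50 after the gene start), and in 0.138% of the promoters of 8700 tested genes. At so low a share, 0 matches in 17 promoters do not tell whether the factor binds there.

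The mitochondrial ribosome translates the proteins encoded in mitochondrial DNA. Of 76 mitochondrial ribosomal protein genes 18 rose (23.7%, against 5.76% of all genes) and 2 fell (2.63%, against 3.52%), with a median of 0.15 and 14 to 20 rises when a library was left out, and of 80 cytosolic ones 3 rose and 0 fell (median -0.01). The count of 3 was 1 without DMSO replicate 1 or 2 or STM2457 replicate 3 or 4, and 7 without STM2457 replicate 1. The difference between the 2 lists was not tested, and a median of 82.0% of the reads of the cytosolic genes mapped to several places. Mrpl46 was at 71.9, 73.8, 76.2 and 64.7 CPM in DMSO and 176, 167, 166 and 157 in STM2457 (log2 fold change 1.22 ± 0.10, SE, edgeR adjusted p = 6.6e-11). Mrpl43 was at 91.99, 78.05, 118 and 90.7 and 235, 194, 227 and 207 (log2 fold change 1.19 ± 0.11, SE, edgeR adjusted p = 5.3e-10), and Mrpl50 at 27.3, 27.3, 28.97 and 16.99 and 52.8, 57.9, 75.95 and 71.3 (log2 fold change 1.36 ± 0.17, SE, edgeR adjusted p = 2.3e-07). Mrps22 (-0.54) and Mrpl47 (-0.41) fell, and neither call held without DMSO replicate 3 or STM2457 replicate 1 or 2. In the respiratory chain, 5 of 75 genes rose (6.67%, near the 5.76% of all genes) and 0 fell (median 0.04, with 9 rises without STM2457 replicate 1). In glycolysis 3 of 20 rose, namely Aldoc (14.3 ± 2.27 to 29.1 ± 5.59, 1.02), Tpi1 (0.38, not called with library totals or without 5 of the 8 libraries) and the glucose transporter Slc2a3 (284 ± 22.2 to 384 ± 13.5, 0.43).

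Smaller numbers changed in transcription, ribosome assembly and mitosis, where 5.76% of all tested genes rose and 3.52% fell. Of 77 genes of RNA polymerase II and Mediator, 10 rose and 2 fell (median 0.08). Without STM2457 replicate 3 the number that rose was 5 and the number that fell 0, without DMSO replicate 1 it was also 0 that fell, and with library totals 7 rose and 4 fell. The rises included the Mediator subunits Med18 (17.6 ± 2.18 to 41.8 ± 5.98 CPM, 1.25) and Med7 (42.2 ± 4.86 to 76.7 ± 9.19, 0.86), and the elongation factors Supt5 (-0.46) and Supt6 (-0.41) fell. Supt6 was not called by DESeq2. In ribosome biogenesis 4 of 24 rose and 1 fell, with nucleolin (Ncl) going from 1760 ± 72.7 to 2558 ± 258 (0.54) and the rRNA methyltransferase gene Nop2 from 389 ± 31.6 to 561 ± 53.4 (0.53). Of 29 mitosis genes 6 rose and 0 fell (median 0.20), among them the kinase genes Aurka (52.6 ± 2.31 to 96.97 ± 8.78, 0.88) and Cdk1 (101 ± 14.4 to 169 ± 11.2, 0.73), and the number was 3 without STM2457 replicate 4. Among 16 cyclins and CDK inhibitors 0 passed, with 0 called by DESeq2 and 1 higher and 5 lower at an unadjusted p under 0.05 in edgeR. In DNA replication Tk1 rose from 152 ± 28.03 to 285 ± 59.98 (0.91), and Rfc3 (-0.44) and Rfc4 (-0.65), clamp loader subunits, fell among 35 genes (4 fell without STM2457 replicate 1 and 1 without DMSO replicate 2 or 3 or without any other STM2457 replicate).

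Both stress response lists had falls and 0 rises, where 3.52% of all tested genes fell and 5.76% rose. Of 20 genes of the integrated stress response, which ATF4 drives when translation initiation is inhibited, 5 fell and 0 rose (median -0.12, with 5 falls whichever library was left out). Chac1, an enzyme that degrades glutathione, was at 50.2, 66.6, 58.3 and 53.7 CPM in DMSO and 23.2, 36.1, 20.3 and 13.8 in STM2457 (log2 fold change -1.29 ± 0.19, SE, edgeR adjusted p = 6.2e-06). Trib3, a pseudokinase that limits the response, was at 92.9, 65.9, 97.3 and 105 and 57.5, 49.7, 44.3 and 41.8 (log2 fold change -0.90 ± 0.14, SE, edgeR adjusted p = 1e-05). Ddit4, an inhibitor of mTORC1 also known as REDD1, was at 334, 382, 492 and 484 and 252, 192, 214 and 219 (log2 fold change -0.95 ± 0.10, SE, edgeR adjusted p = 2e-08). With Ddit3 these had no overlap between groups, and the fifth was the sestrin gene Sesn2 (257 ± 6.98 to 179.7 ± 12.6, -0.52). Asns, the asparagine synthetase gene, had a log2 fold change of -0.01 and Atf4 itself of -0.21 (adjusted p = 0.0632), while Atf3 spanned 12.99, 4.24, 13.1 and 15.2 and 7.05, 7.39, 0.162 and 3.08 (adjusted p = 0.0515).

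Promoters of this list were searched for TTNCATCA, the core of the composite CHOP and ATF4 element, on both strands. It occurred in 5 of 18 members' promoters in RefSeq (27.8%) and in 2.03% of the promoters of all tested genes, and its choice was made with the values known. The windows of the 2 members that fell and hold it, with the match in capitals, are these.
Chac1, chr2:119351041-119351064, plus strand: ccctgccgTTGCATCActcctgcc
Trib3, chr2:152344031-152344054, minus strand: gctcaggtTTACATCAgccgggcg
The other 3 with a match, Asns, Atf3 and Nupr1, passed no threshold, and the promoters of Ddit3, Ddit4 and Sesn2 do not hold these letters in the window.

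In the p53 list, 5 of 19 fell (26.3%, against 3.52% of all genes) and 0 rose (median -0.34, with 4 to 6 falls when a library was left out). Ddit4 and Sesn2 belong to both stress lists. Mdm2, the ubiquitin ligase that p53 activates and that degrades it, was at 307, 301, 309 and 336 CPM in DMSO and 207, 219, 206 and 203 in STM2457 (log2 fold change -0.59 ± 0.08, SE, edgeR adjusted p = 3.8e-06). The kinase gene Plk2 went from 56.8 ± 9.27 to 29.6 ± 2.16 (-0.94) and the apoptosis effector Bax from 135 ± 18.96 to 102 ± 9.19 (-0.42, not called without DMSO replicate 2 or 4 or any of STM2457 replicates 1 to 3). Cdkn1a, the p21 gene and the best known p53 target, was at 246, 237, 205 and 265 and 236, 256, 256 and 245 (log2 fold change 0.06, adjusted p = 0.717), and Trp53 had a log2 fold change of -0.42 (adjusted p = 0.0214). Of 18 apoptosis regulators 2 rose, 1 fell and 15 passed no threshold (median -0.05). The protective genes Bcl2l1 (18.9 ± 3.66 to 39.4 ± 4.32, 1.06) and Mcl1 (196 ± 8.05 to 271 ± 41.7, 0.47) rose, Bax fell, and the protective Bcl2 had a log2 fold change of 2.74 (adjusted p = 0.0262). Of 18 heat shock chaperones, the inducible Hspa1a and Hspa1b fell (-1.79 and -1.20, near-identical copies that share reads, Hspa1a not called without DMSO replicate 4), and the chaperones of the endoplasmic reticulum Hspa5 (0.41) and Hsp90b1 (0.34) and the mitochondrial Hspd1 (0.28, 83.9% multimapping) rose. Of these 3 rises, that of Hspa5 was called under every alternative and without any library, whereas the others were lost with library totals and without most of the libraries.

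In nonsense-mediated decay, which degrades mRNAs with a premature stop codon, 3 of 16 genes rose and 2 fell (31.2%, against 9.28% of all genes, median -0.10). Smg8 (0.85) and the exon junction genes Casc3 (0.48) and Magoh (0.39) rose, and Smg6 (-0.50) and Smg9 (-0.63) fell. Single libraries moved these counts, with 1 rise and 0 falls without DMSO replicate 1 or STM2457 replicate 3, 0 falls without DMSO replicate 4 or STM2457 replicate 4, and 1 fall without DMSO replicate 2 or STM2457 replicate 1.

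Further lists are given by their counts, where 5.76% of all tested genes rose and 3.52% fell. Of 39 proteasome subunits 1 rose (Psmd7, 906 ± 23.6 to 1407 ± 132, 0.64) and 1 fell, 2.56% each way. Of 63 spliceosomal genes 5 rose and 5 fell, of 51 DEAD/DEAH-box helicases 6 rose and 1 fell, of 28 Polycomb genes 4 rose and of 18 imprinted genes Meg3 (-0.51), Snrpn (-0.44) and Nnat fell. In the largest families, 4 of 172 solute carriers rose (2.33%) and 8 fell (4.65%), and 14 of 295 Zfp zinc finger genes rose (4.75%) and 7 fell (2.37%). The shares of both families lay near or below those of all genes. Single libraries moved the counts of these lists: the spliceosomal rises were 3 without DMSO replicate 1 or 2 and the falls 3 without STM2457 replicate 3, the helicase rises 3 without DMSO replicate 2 or 3 or STM2457 replicate 1, the Polycomb rises 2 without DMSO replicate 2 or STM2457 replicate 1 or 3, the solute carrier falls 4 without DMSO replicate 3 and 5 without STM2457 replicate 2 or 4, and the Zfp rises 8 without STM2457 replicate 3 and 9 without STM2457 replicate 2. Epcam, the adhesion molecule of epithelial and stem cells, fell from 244 ± 8.84 to 156 ± 18.1 (-0.64), and the tight junction gene Cldn4 rose from 37.3 ± 3.43 to 72.9 ± 8.65 (0.97).

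**Figure D3:**
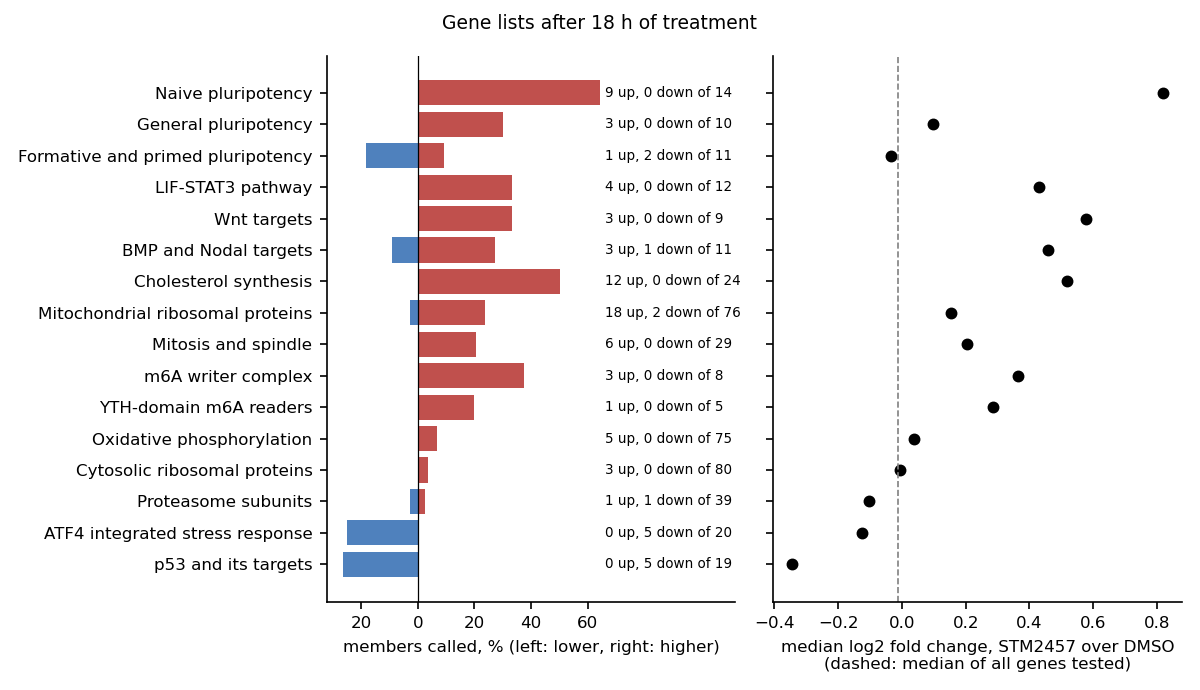
Percent of tested members that rose and that fell (left) and the median log2 fold change (right) for 16 gene lists. Naive pluripotency (9 of 14) and cholesterol synthesis (12 of 24) have the largest shares of rises among the lists drawn, and the p53 and ATF4 lists have 5 falls (of 19 and of 20) and 0 rises each.

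Cells of the same experiment were also collected earlier in the chase, after 14 and after 6 h of treatment, in libraries of their own. At 14 h 541 of 10866 tested genes passed the threshold (4.98%), of which 351 were higher (3.23%) and 190 lower (1.75%). At 6 h 154 of 10852 passed (1.42%), with 115 higher (1.06%) and 39 lower (0.359%). Of the 634 genes that rose by 18 h, 262 (41.3%) had risen by 14 h and 79 of 633 (12.5%) by 6 h, and their median log2 fold change was 0.70 at 18 h, 0.43 at 14 h and 0.24 at 6 h. Of the 387 genes that fell, 81 of 379 (21.4%) had fallen by 14 h and 6 of 376 (1.596%) by 6 h, and the median went from -0.72 to -0.43 and -0.13. These genes were chosen for their 18 h values, and values so chosen are larger on average than those of the same genes in other libraries.

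A test of the difference itself, the treatment-by-time interaction between 18 h and 6 h in 16 libraries, called 196 of 11538 genes (1.7%), with 152 above 0 (1.32%) and 44 below (0.381%). The genes given next were chosen after their values were seen. Wtap had a log2 fold change of 0.86 at 6 h, 0.73 at 14 h and 0.72 at 18 h (difference -0.12, adjusted p = 0.723), and Nxt1 of 1.04, 1.07 and 1.54. Sp5 was at 0.05, 1.21 and 1.85 (difference 1.83, adjusted p = 0.00031), Mycn at 0.22, 0.92 and 1.62 (1.41, 7.6e-06), and Tfcp2l1 at -0.03, 0.81 and 1.06 (1.11, 0.00342). Klf2 was past the threshold at all 3 times (0.54, 0.98 and 1.55). Of the integrated stress response list 0 genes had fallen by 6 h (3 at an unadjusted p under 0.05 in edgeR) and 3 by 14 h. Ddit3 had log2 fold changes of -0.05, -1.34 and -2.18 (difference -2.10, adjusted p = 5.4e-06), Trib3 of 0.84, -0.35 and -0.90 (-1.72, 8.3e-05), and Chac1 of 1.18, -1.12 and -1.29 (-2.47, 0.00099), where the values of Trib3 and Chac1 at 6 h did not pass the threshold. Of the cholesterol list, 2 of 24 had risen by 6 h, 11 by 14 h and 12 by 18 h, with medians of 0.22, 0.46 and 0.52. Of the mitochondrial ribosomal proteins it was 1, 11 and 18 of 76, and of the naive genes 3, 6 and 9 of 14.

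**Figure D4:**
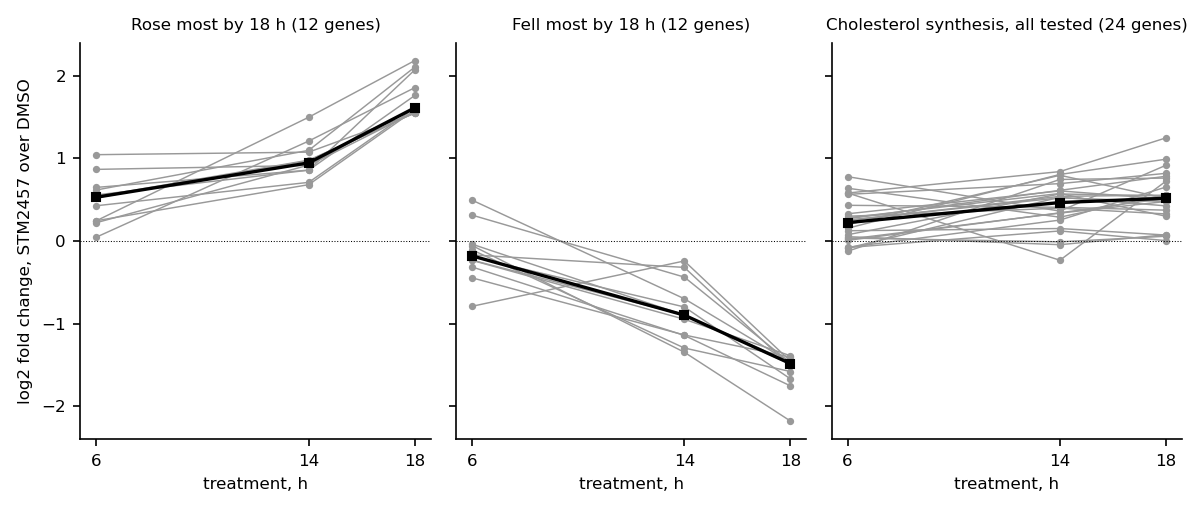
Log2 fold change of reads (STM2457 against DMSO) at 6, 14 and 18 h of treatment for the 12 named genes with the largest rises, the 12 with the largest falls and all 24 cholesterol genes, a line per gene and black squares for the median. The first 2 panels show genes chosen by their 18 h values, and the cholesterol median goes from 0.22 over 0.46 to 0.52.

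The labelled share after 12 h of chase, pooled over all genes, was lower with STM2457. T-to-C conversions made up 0.278%, 0.265%, 0.290% and 0.282% of the covered T positions in the DMSO replicates and 0.232%, 0.218%, 0.222% and 0.219% in the STM2457 replicates. The groups did not overlap, and the means of 0.279% ± 0.0104 and 0.223% ± 0.00599 (SD, n = 4) differed by -0.0559 percentage points (two-sided exact permutation p = 0.0286). Unlabelled cells of the same treatments, the background, had 0.0814% ± 0.00438 and 0.0829% ± 0.00812. At 0 h of chase the rates were 1.37% ± 0.0668 in DMSO and 1.28% ± 0.0728 in STM2457 (SD, n = 4, exact permutation p = 0.114). After subtraction of the background and relative to 0 h in the same treatment, 15.3% ± 0.806 of the label remained in DMSO and 11.7% ± 0.502 in STM2457 (difference -3.60 percentage points, exact permutation p = 0.0286). Each 12 h library was set against a single 0 h rate and a single background per treatment. This SD and p therefore leave out the spread of the 0 h and unlabelled libraries. The rate pools all genes, so that those with many reads weigh most. The median over genes was 0.116% in DMSO and 0.0999% in STM2457, and that difference of -0.0163 did not pass (exact permutation p = 0.0571).

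Gene by gene, 143 of 5562 tested genes had a lower labelled share in STM2457 (2.57%) and 2 a higher one (0.036%), 2.61% together, in edgeR's test on conversions with the covered T positions as offset. The groups did not overlap in 447 genes (8.04%), the median log2 fold change was -0.23 and 63.3% of genes were below 0. Relative to the overall rate of each library, 21 genes were higher and 22 lower and the median was 0.08. The limma test on log2 rates called 0 higher and 1 lower (149 and 516 at an unadjusted p under 0.05). Among the 4986 genes under 20% multimapping, 0 were higher and 66 lower by edgeR (92 and 434 at an unadjusted p under 0.05). The median gene had 38 conversions over the 4 DMSO libraries, so that the depth allows few single genes to be told apart. The drop of the share from 0 to 12 h of chase differed between treatments in 44 of the 5562 genes (0.791%), of which 40 dropped more with STM2457 and 4 less.

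Lists differed in how much label remained, where the SD is again that of the 12 h libraries alone. The cytosolic ribosomal protein genes kept 46.1% ± 2.87 of their label in DMSO and 37.9% ± 1.84 in STM2457 (SD, n = 4). Of 78 tested, 26 were lower and 0 higher, where 2.57% of all genes were lower. The median log2 fold change was -0.30, near the -0.23 of all genes tested for the label. A median of 82.0% of the reads of these genes mapped to several places, so their values are uncertain. The number lower ranged from 0 to 26 over the other settings and from 18 to 31 with a library left out. Relative to the rate of the library the median was 0.02, with 3 higher and 2 lower. Genes of oxidative phosphorylation kept 32.9% and 25.3%, with 9 of 74 lower, glycolysis 29.1% and 20.1%, with 3 of 15 lower, and translation factors 26.7% and 20.1%, with 6 of 53 lower, where 2.57% of all genes were lower. Relative to the rate of the library 0, 1 and 1 of these were lower and the medians were -0.00404, -0.12 and -0.05, and limma called 0 in each. The 9 were 4 without DMSO replicate 1 or STM2457 replicate 2 and 5 without DMSO replicate 3 or 4, and the 6 translation factors were 3 without DMSO replicate 4. In other lists the median lay below that of the library as a whole. Proteasome subunits kept 15.8% in DMSO and 8.90% in STM2457 (6 of 35 lower, 3 without STM2457 replicate 3 and 1 relative to the library, median -0.66 and -0.34 relative to the library), spliceosomal genes 12.5% and 7.57% (10 of 60 lower, -0.53 and -0.21), and aminoacyl-tRNA synthetases 11.8% and 4.66% (3 of 20 lower, -0.74 and -0.43). The mitochondrial ribosomal proteins kept 7.43% and 7.64%, with 0 of 75 called and a median of -0.12 (0.19 relative to the library), where 5 higher and 4 lower passed an unadjusted p under 0.05 and limma called 0. Some lists had little label left to compare, as cholesterol synthesis with 4.78% and 2.92% and mitosis with 1.47% and 1.62%.

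**Figure D5:**
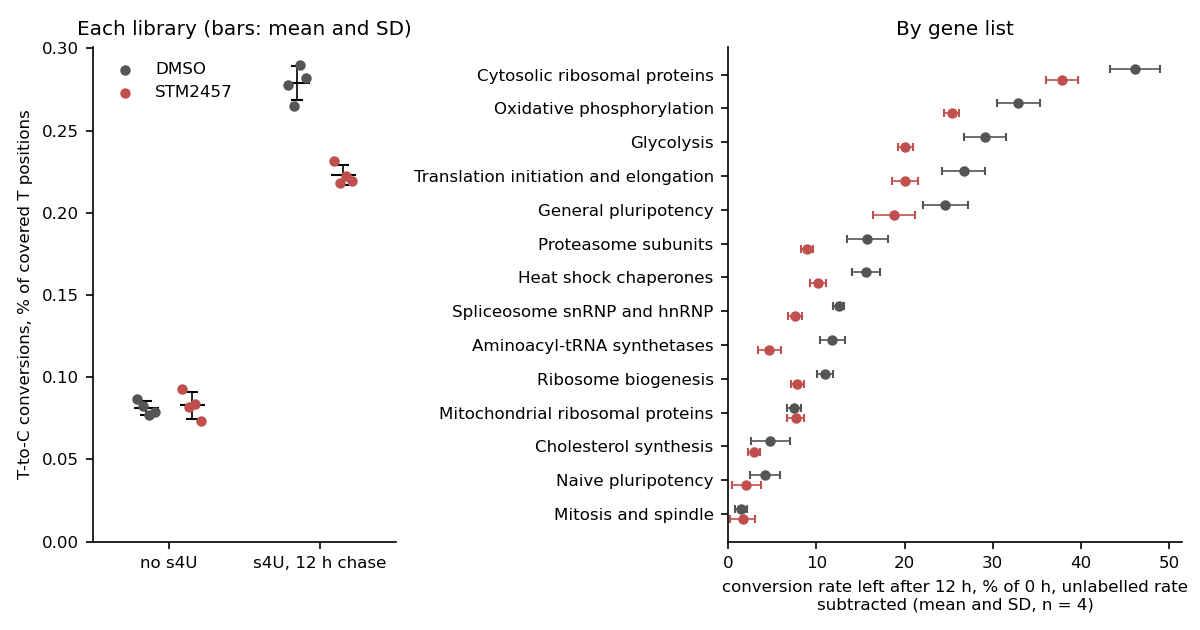
Left, conversion rate (percent of covered T positions) in each library of unlabelled cells and of cells after 12 h of chase, by treatment. Right, label remaining after 12 h in 14 gene lists (percent of 0 h in the same treatment, mean and SD of the 4 libraries at 12 h, without the spread at 0 h). The cytosolic ribosomal proteins are highest at 46.1% in DMSO and 37.9% in STM2457, and mitosis genes lowest.

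Among single genes with the largest losses of label, 2 also passed relative to the library rate. Farsb (chr1:78417975-78488897), a subunit of phenylalanyl-tRNA synthetase, had conversion rates of 0.156, 0.155, 0.1198 and 0.237 percent in the DMSO replicates and 0.0407, 0.0348, 0.0688 and 0.0361 percent in the STM2457 replicates (log2 fold change -1.87 ± 0.35, SE, edgeR adjusted p = 1.5e-05). Klhl13 (chrX:23219271-23365082), an X-linked adaptor of a ubiquitin ligase, had 0.616, 0.562, 0.4204 and 0.35 percent and 0.192, 0.148, 0.187 and 0.0958 percent (log2 fold change -1.64 ± 0.33, SE, edgeR adjusted p = 7.4e-05). Relative to the library the log2 fold changes were -1.55 for Farsb (adjusted p = 0.00206) and -1.33 for Klhl13 (0.00749), and in limma neither passed 0.01 (0.0257 and 0.0973). The groups did not overlap in either gene. Gga2 (-2.98), Hnrnph3 (-3.45), Dtd1 (-2.24), Dctn2 (-1.86), Ddit4 (-1.79) and Ywhab (-1.73) completed the 8 largest losses and passed neither relative to the library rate nor in limma. Ddit4 is the 1 gene of these 8 that is also named for its read count.

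With far more conversions behind it, Eif4g2, a translation initiation factor, had 0.226, 0.211, 0.237 and 0.186 percent in DMSO and 0.123, 0.0589, 0.0812 and 0.107 percent in STM2457 (log2 fold change -1.22 ± 0.15, SE, edgeR adjusted p = 1.5e-12, and -0.90 relative to the library, adjusted p = 2.5e-07). The nucleolar protein gene Npm1 had the smallest p of all genes (log2 fold change -1.07 ± 0.10, SE, edgeR adjusted p = 1.6e-22), with 51.9% multimapping reads. Eif4g2 and Npm1 were chosen after their values were seen. Against the general loss, the 2 genes with a higher labelled share were the tubulin gene Tubb4b (log2 fold change 1.57 ± 0.23, SE, edgeR adjusted p = 2.8e-09, 52.3% multimapping) and the dynein light chain gene Dynll1 (log2 fold change 1.09 ± 0.29, SE, edgeR adjusted p = 0.00633, 36.1% multimapping). Tubb4b also rose in reads, from 376, 311, 318 and 355 to 968, 883, 901 and 897 (log2 fold change 1.43 ± 0.08, SE, edgeR adjusted p = 2.6e-15). Reads of near-identical tubulin copies can be split between them by the counting, so that its value is uncertain. Nucleolin had conversion rates of 0.184, 0.192, 0.198 and 0.2001 percent in DMSO and 0.252, 0.281, 0.228 and 0.268 percent in STM2457, a higher share in each library of the treated group, and Ncl passed the threshold relative to the library (0.73, adjusted p = 1.8e-08) but not on the rate itself (0.41, adjusted p = 0.0172). It was likewise chosen after its values were seen.

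The reads and the label of a gene can be read together. Of the 634 genes that rose in reads, 523 had a label test, and their median log2 fold change of the labelled share was 0.00, with 49.9% below 0. For the 234 of the genes that fell it was -0.17, and for the 4805 genes that passed no read threshold -0.26. Relative to the library rate these medians were 0.31, 0.17 and 0.05. The reads are part of both measures, since a gene's covered T positions follow its reads, so that no test of this relation was made. Newly made RNA lowers the share without any loss of old RNA, and the share is therefore no measure of decay alone.

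The study asked how m6A bears on the balance between the X chromosome and autosomes. It used half-lives, and fold changes by chromosome and X:A ratios from separate RNA-seq with another normalization and other treatment times. It also counted m6A sites and GGACH motifs by chromosome and used published half-lives of Mettl3 knockout cells. Its half-lives, fitted over the time points of this SLAM-seq experiment, had a longer median with STM2457. The labelled share at 12 h alone is an unlike measure. It reported an X:A ratio near 1 in DMSO, with silent and lowly expressed genes left out, that was lower after m6A depletion. The 3′ end read counts at 18 h, scaled by TMM, are an unlike measure too. Their median log2 fold change was -0.0137 for X-linked and -0.0126 for autosomal genes. Over 378 X-linked and 10559 autosomal tested genes, the median log2 level of X-linked genes minus that of autosomal genes was -0.54 ± 0.09 in DMSO and -0.48 ± 0.05 in STM2457 (SD, n = 4, log2 of CPM with 1 added). The differences in the DMSO replicates were -0.60, -0.43, -0.49 and -0.63 and in the STM2457 replicates -0.43, -0.52, -0.44 and -0.52, which overlap (difference 0.05, exact permutation p = 0.371). X-linked genes took 2.36% ± 0.0375 of the reads in DMSO and 2.37% ± 0.0265 in STM2457 (exact permutation p = 0.543). Of the X-linked genes 25 rose (6.61%) and 3 fell (0.794%), and of the autosomal genes 608 rose (5.76%) and 381 fell (3.61%). The difference between these shares was not tested over libraries.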

How the data were processed

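SLAM-seq libraries were made by 3′ end sequencing of RNA from labelled male mESC. Alignment and conversion calling were done by the authors with SLAM-DUNK on GRCm38, leaving out variants found in unlabelled cells, over published 3′ UTR windows filtered to match GENCODE M23 and merged for each gene. The deposited files give raw counts (reads, multimapping reads, covered T positions, conversions), the authors' conversion rate as a fraction, equal to the ratio of the last pair, and the deposited CPM. The submitters' processing notes also name FastQC 0.11.8.

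Groups follow the labels, and 24 libraries of 0 h, 8 h and no s4U served beside the 8. Read counts were tested with edgeR 4.0.16 (R 4.3.3, TMM, filterByExpr, quasi-likelihood, Benjamini-Hochberg over all tested genes, adjusted p under 0.01, the study's threshold for RNA-seq). Conversions were tested likewise with the log of the covered T positions as offset, at a mean T coverage of at least 3000 and at least 10 conversions. Libraries were compared by two-sided exact permutation tests. Alternatives were DESeq2 1.42.0, limma 3.58.1, library totals, other filters and thresholds, unique reads, scaling to the library rate, a replicate block and leaving out each library. No molecular identifiers are stated, so errors are from replicates. Scripts were tested on simulated data. Of simulated read-count changes of 1 on the log2 scale 72.0% were recovered, and 26.0% of those of 0.5. For the labelled share 4.5% of changes of 1 were recovered. A gene not called, above all for the label, is therefore not shown to be unchanged.

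The comparison and the 58 gene lists were chosen with earlier results of these data known. Genes named are the 12 largest rises and 12 largest falls among called genes with at least 20 CPM in the higher group, no overlap and under 20% multimapping reads, the 8 largest losses of label, up to 3 called members of a list each way by p, and all writers, demethylases and readers. Other called list members are additions to that rule. Some genes that the rule names are not reported here. Positions are from GENCODE M21 (21383 of 21527 symbols matched), promoters from RefSeq GRCm38.p6.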

Additional observations from a re-analysis of the deposited data

Results flagged for a closer look

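Among 104 groups of 4 libraries examined for a value far from the other 3, 6 were marked, where chance gives about 5.2. DMSO replicate 1 had the fewest reads, 4539726, and the other DMSO libraries averaged 5410445. The remaining 5 were Nkx2-9 at 16.8 CPM in DMSO replicate 3 (mean of the others 24.2), Hnrnph3 at 42.99 in DMSO replicate 2 (48.6), Zc3h13 at 70.5 in DMSO replicate 4 (58.4), Alkbh5 at 208 in DMSO replicate 4 (163) and Ythdc1 at 85.7 in STM2457 replicate 1 (77.0).

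For 15 of the genes with the largest changes, the response at 18 h differed from that at 6 h by the interaction test over 16 libraries. The differences in log2 fold change (18 h minus 6 h, edgeR adjusted p in brackets) were 1.96 for Mir17hg (0.00045), 1.51 for Eras (0.00676), 1.53 for Rhob (0.00035), 1.83 for Sp5 (0.00031), 1.13 for Sfn (4.3e-05), 1.41 for Mycn (7.6e-06), 1.20 for Snhg20 (2.4e-05), 1.36 for Fgfbp1 (0.00106) and 1.03 for Klf2 (1.3e-05). Below 0 they were -2.10 for Ddit3 (5.4e-06), -1.42 for Plk5 (0.00756), -1.43 for Zfp688 (0.0072), -1.77 for Parp16 (0.00241), -1.22 for Got1l1 (0.00128) and -1.94 for Rasl11b (0.00045). These genes were named for their values at 18 h, which the difference contains.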

How the results depend on the processing

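No result with a call changed direction under the alternatives run, but the median log2 fold change of the labelled share was -0.23 as reported and 0.08 relative to the library rate. The second setting divides each gene's rate by the overall rate of its library. That rate was lower with STM2457 (0.223% against 0.279%), so the scaling itself moves the median up. Why the other settings differed was not tested. For the read counts, 1839 genes passed an adjusted p under 0.05 (1025 higher, 814 lower), and DESeq2 called 740 higher and 521 lower, while the number lower was 247 to 353 and the number higher 462 to 646 when each library was left out. Library totals gave 535 higher and 513 lower, no filter on low counts 774 and 447, and uniquely mapping reads 606 and 358. For the labelled share, 145 genes were called as reported, 43 relative to the library rate (21 higher, 22 lower), 1 by limma (0 higher, 1 lower) and 66 under 20% multimapping (0 higher, 66 lower), and 1 to 4 were higher when each library was left out. The difference of 18 h and 6 h was called in 307 genes by DESeq2 (220 above 0, 87 below) against 196. The conversion rate differed by -0.0163 as a median over genes (exact permutation p = 0.0571) and by -0.0604 to -0.0521 without each library. Of 143 genes named and called for read counts, 39 lost their call under some alternative, 9 of them with library totals, and 8 of 8 named for the labelled share did so. DMSO and STM2457 share replicate numbers, but same-numbered libraries did not deviate together (correlations 0.021, 0.021, -0.060 and -0.036), so the numbers do not pair them. With the replicate number as a block, 635 genes were higher and 369 lower in reads, 2 and 127 in the labelled share and 175 and 52 in the difference of times, the conversion rate difference of -0.0559 had an exact sign-flip p of 0.125, the smallest that 4 pairs allow, and X minus autosomes kept a difference of 0.05 (exact sign-flip p = 0.375). Depth limits the labelled share, with a median of 38 conversions per gene over the 4 DMSO libraries.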
